A study of Mus musculus with 12 samples.

Results

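The transforming growth factor beta (TGF-beta) pathway was followed through 9 of its genes in the mouse retina after ageing and after a rise in intraocular pressure (IOP). The genes were the ligands Tgfb1, Tgfb2 and Tgfb3, the latent binding protein Ltbp1, the receptors Tgfbr1 and Tgfbr2, the signal transducer Smad3, the inhibitor Smad7, and the induced matrix protein Tgfbi. They were taken by symbol from the 25124 genes listed in each of the deposited expression tables, and all 9 had a row in both.

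TGF-beta ligands are secreted in a latent complex that latent binding proteins such as Ltbp1 tether to the extracellular matrix, and integrins or proteases release the active form. The ligand binds the receptor encoded by Tgfbr2, which phosphorylates the partner receptor encoded by Tgfbr1. That receptor phosphorylates Smad3, which enters the nucleus with its partners and acts on transcription, while Smad7 is induced by the pathway and inhibits it at the receptor. In the retina and the anterior eye, TGF-beta is known for its part in vascular and matrix homeostasis and in holding microglia in a resting state, and Tgfb2 is the ligand most often discussed in glaucoma.

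Poly(A) RNA of whole retinas from wild-type mice was sequenced in 12 libraries that form 6 groups of 2. The 3mo control and 3mo IOP groups were 3 months old and the 18mo control and 18mo IOP groups 18 months old. In the IOP groups the pressure in 1 eye was raised to 30 mmHg for 1 h by hydrostatic pressure and the retina was taken 2 days later, with the untreated fellow eye as control. The 4xIOP group was labelled as 3 months old, received 4 such elevations and was taken 2 days after the last, with its own fellow-eye controls (4xIOP control). The labels do not say which replicates came from separate animals or which control eye belongs to which treated eye, so p-values measure the spread between these libraries only.

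Values are FPKM, reads per kilobase of transcript and scaled to the mapped tags of the library. The 8 libraries of single elevations and the 4 of repeated elevations stand in separate tables that were normalized apart, so levels from the tables are set side by side without a test. Depth was between 39766258 and 59455050 tags per library, and exons held between 44.2% and 71.5% of them. Rod markers summed to between 4575 and 23460 FPKM, so the markers of the labelled tissue were present in every library. The libraries differed in how values depended on transcript length: the median level of transcripts under 1 kb against those of 4 kb or more was 1.89 to 4.70 in the 3-month and 1.20 to 1.36 in the 18-month libraries of single elevations and 1.45 to 2.20 in the 4 of repeated elevations, and 3mo control replicate 2 stood apart at 4.70. All 9 genes have transcripts of over 2 kb, so results by age are also given with this trend removed.

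In mm10, Tgfb1 (NM_011577) lies on chromosome 7 from 25687002 to 25705077 on the plus strand, Tgfb2 (NM_009367) on chromosome 1 from 186622792 to 186705989 on the minus strand and Tgfb3 (NM_009368) on chromosome 12 from 86056743 to 86079041 on the minus strand. Ltbp1 lies on chromosome 17 from 75178781 to 75392512 on the plus strand, and the tables hold different isoforms of it (NM_001331236 of 6029 bases for single and NM_001331234 of 6188 bases for repeated elevations). Tgfbr1 (NM_001312868) lies on chromosome 4 from 47353222 to 47414924 on the plus strand and Tgfbr2 (NM_029575) on chromosome 9 from 116087695 to 116175363 on the minus strand. Smad3 (NM_016769) lies on chromosome 9 from 63646767 to 63757994 on the minus strand, and Tgfbi (NM_009369) on chromosome 13 from 56609586 to 56639359 on the plus strand. Smad7 was read from NM_001042660. Each value sums the exons of the listed transcript.

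The 250 bases before the transcription start are shown for the 4 genes on which the results turn, Tgfb2, Tgfbr2 and Smad3 for age and Tgfbi and Tgfbr2 for repeated elevations. They come from RefSeq on GRCm38.p6, written 5′ to 3′ on the strand of the gene, and a start that matched the deposited transcript was found for 7 of the 9 genes. Capitals mark a match to any of 6 motifs searched on both strands: AP-1 (TGANTCA), the cyclic AMP response element (TGACGTCA), the Smad-binding CAGA box (AGCCAGACA), the palindromic Smad box (GTCTAGAC), the STAT-binding GAS element (TTCNNNGAA) and the TATA box (TATAAA).
Tgfb2, chr1:186705990-186706239, minus strand: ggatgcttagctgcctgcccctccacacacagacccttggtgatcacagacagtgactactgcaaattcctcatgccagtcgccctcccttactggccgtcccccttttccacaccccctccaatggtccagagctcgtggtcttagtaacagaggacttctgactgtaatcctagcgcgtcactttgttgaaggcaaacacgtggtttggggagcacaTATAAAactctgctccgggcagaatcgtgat
Tgfbr2, chr9:116175364-116175613, minus strand: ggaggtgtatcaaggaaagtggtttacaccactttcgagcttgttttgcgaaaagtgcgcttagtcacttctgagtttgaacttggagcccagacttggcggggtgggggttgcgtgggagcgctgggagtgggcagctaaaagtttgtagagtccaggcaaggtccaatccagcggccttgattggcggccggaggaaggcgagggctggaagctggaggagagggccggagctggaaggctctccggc
Smad3, chr9:63757995-63758244, minus strand: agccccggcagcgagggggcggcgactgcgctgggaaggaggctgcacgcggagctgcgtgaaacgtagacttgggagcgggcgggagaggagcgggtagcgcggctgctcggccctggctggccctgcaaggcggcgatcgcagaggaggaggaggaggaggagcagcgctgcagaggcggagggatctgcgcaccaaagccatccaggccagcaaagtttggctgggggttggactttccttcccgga
Tgfbi, chr13:56609336-56609585, plus strand: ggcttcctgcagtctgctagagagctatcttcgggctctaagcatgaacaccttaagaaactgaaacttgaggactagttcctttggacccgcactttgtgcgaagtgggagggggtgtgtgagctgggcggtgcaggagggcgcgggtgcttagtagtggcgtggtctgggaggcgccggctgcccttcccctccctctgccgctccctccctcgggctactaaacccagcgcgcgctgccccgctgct
The only match in the 7 windows was a TATAAA in Tgfb2 that starts 31 bases before the transcription start, a motif held by 12.4% of the 32851 RefSeq windows of this length. AP-1 letters were in 6.75% of all windows, GAS in 7.02%, the cyclic AMP element in 1.55%, the CAGA box in 0.301% and the palindromic Smad box in 0.167%. A window without a match says only that these letters are not in it. The GC content was 53.6% in Tgfb2, 58.4% in Tgfbr2, 69.2% in Smad3 and 62.4% in Tgfbi, against a median of 52.4% over all windows.

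Tgfb2 was the main ligand transcript of the retina in every library. Per length, its level stood at 6.54 and 4.82 FPKM in the 3mo control libraries, 8.64 and 6.75 in 3mo IOP, 16.3 and 17.0 in 18mo control, and 25.2 and 22.0 in 18mo IOP. The 4 groups of single elevations followed each other in that order with no overlap between neighbours. After repeated elevations Tgfb2 was at 5.30 and 5.32 FPKM in 4xIOP control and 6.32 and 6.11 in 4xIOP.

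Tgfb1, the ligand stored in platelets and made by many immune cells, was the lowest ligand in all libraries but 18mo IOP. It measured 0.111 and 0.367 FPKM in the 3mo control eyes, 1.11 and 0.609 in 3mo IOP, 0.716 and 1.11 in 18mo control, and 2.62 and 1.46 in 18mo IOP. 3mo IOP and 18mo control overlapped, and the other neighbours in order of level did not. In the repeated table it was 0.046 and 0.033 FPKM in 4xIOP control, from 4 and 3 reads, and 0.526 and 0.251 in 4xIOP, from 64 and 23 reads. These controls are at the edge of measurement, since 3 reads was taken as the limit.

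Tgfb3, the ligand with a known role in palate closure, was 2.26 and 1.43 FPKM in the 3mo control eyes, 1.99 and 2.22 in 3mo IOP, 1.04 and 1.80 in 18mo control, and 2.15 and 1.14 in 18mo IOP. All neighbours in order of level overlapped, while both 3mo IOP libraries lay above both 18mo control libraries. In the repeated table the values were 3.34 and 2.64 FPKM in 4xIOP control and 2.40 and 2.94 in 4xIOP, again with overlap.

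Of the summed ligand FPKM, Tgfb2 made up 70.5% to 73.6% in the 3-month libraries and 84.1% to 90.3% in the 18-month libraries of the single-elevation table. The ranges of the ages did not overlap. Its share in the repeated series was 61.0% to 68.4%. Tgfb3 held 17.0% to 25.4% at 3 months and 4.63% to 9.04% at 18 months, and Tgfb1 stayed at or below 9.42% in all 12 libraries.

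**Figure D1:**
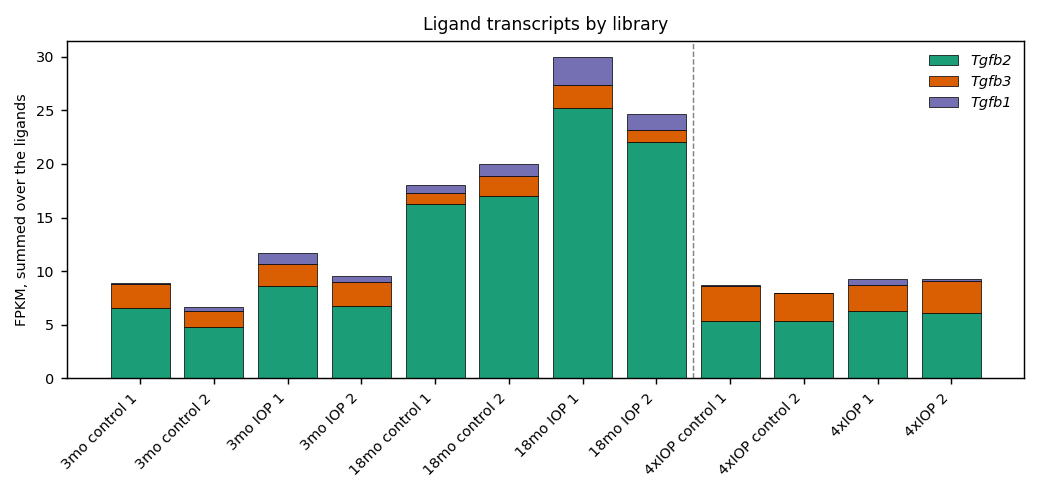
Stacked bars of the FPKM of Tgfb2, Tgfb3 and Tgfb1 in each of the 12 libraries (x axis, group and replicate), with a dashed line between the separately normalized tables. The summed height rises from 6.62 to 11.7 FPKM in the 3-month libraries to 18.0 to 30.0 FPKM in the 18-month libraries, and the Tgfb2 block makes up most of each bar.

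Ltbp1 was 0.567 and 0.434 FPKM in the 3mo control eyes, 1.15 and 0.780 in 3mo IOP, 0.624 and 0.712 in 18mo control, and 1.23 and 1.05 in 18mo IOP. At either age both IOP libraries lay above both controls, and the 3mo IOP and 18mo IOP libraries overlapped. The repeated series held it at 0.508 and 0.626 FPKM in 4xIOP control and 1.22 and 0.948 in 4xIOP, without overlap.

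Tgfbr2 was 0.333 and 0.223 FPKM in the 3mo control eyes, 1.05 and 0.663 in 3mo IOP, 1.70 and 1.69 in 18mo control, and 3.18 and 1.80 in 18mo IOP, with no overlap between neighbouring groups. The other series had it at 0.625 and 0.678 FPKM in 4xIOP control and 2.10 and 1.57 in 4xIOP. Tgfbr1, its signalling partner, was 5.30 and 3.89 FPKM in the 3mo control eyes, 4.40 and 4.43 in 3mo IOP, 5.69 and 5.48 in 18mo control, and 8.04 and 5.71 in 18mo IOP. Only the 3-month groups overlapped among its neighbours, and in the repeated table it was 4.38 and 3.96 FPKM in 4xIOP control and 5.45 and 6.54 in 4xIOP.

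Smad3 divided the libraries by age. It was 1.90 and 1.34 FPKM in the 3mo control eyes, 1.67 and 1.69 in 3mo IOP, 5.35 and 6.34 in 18mo control, and 8.60 and 7.36 in 18mo IOP. The 3-month groups overlapped with each other and not with the 18-month groups. Repeated elevations and their controls gave 3.46 and 3.31 FPKM in 4xIOP control and 3.93 and 4.42 in 4xIOP.

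Smad7 was 1.44 and 0.973 FPKM in the 3mo control eyes, 1.30 and 1.29 in 3mo IOP, 2.56 and 2.43 in 18mo control, and 2.16 and 3.03 in 18mo IOP, so that treated and control eyes overlapped at both ages. In the repeated table it was 1.16 and 1.02 FPKM in 4xIOP control and 1.13 and 0.886 in 4xIOP, with overlap.

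Tgfbi, a secreted matrix protein named for its induction by TGF-beta and known from corneal dystrophies, was 0.205 and 0.513 FPKM in the 3mo control eyes, 1.15 and 0.926 in 3mo IOP, 0.618 and 0.357 in 18mo control, and 1.16 and 3.15 in 18mo IOP. The control eyes of the ages overlapped and both IOP groups lay above both of them. In the repeated table it was 0.075 and 0.114 FPKM in 4xIOP control, from 8 and 13 reads, and 9.46 and 8.96 in 4xIOP, from 1432 and 1021 reads. In 4xIOP it was the highest of the 9 genes, whereas Tgfb2 was the highest in the other 5 groups.

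**Figure D2:**
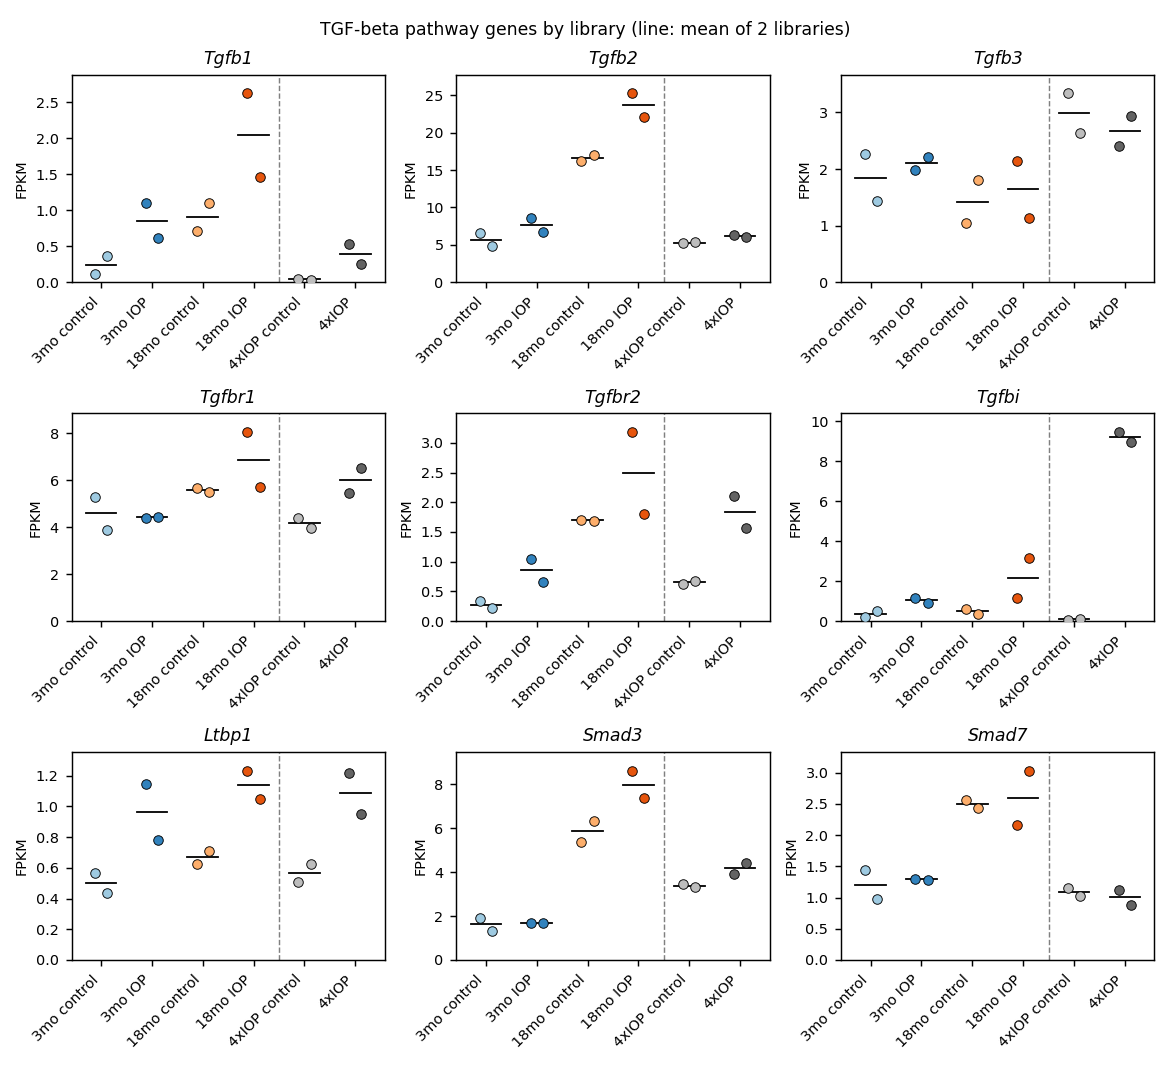
FPKM (y axis, from 0) of each of the 9 genes in the 6 groups, with a point per library, a line at the mean of 2 libraries and a dashed line between the separately normalized tables. Tgfb2, Tgfbr2 and Smad3 are higher in all 18-month libraries than in any 3-month library of the single-elevation table, and the Tgfbi points of 4xIOP, at 9.46 and 8.96 FPKM, stand far above its other libraries.

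The age comparison asked how the unpressurised retina differs between 18 and 3 months. Tgfb2, Tgfbr2 and Smad3 rose, by 2.93-fold, 6.09-fold and 3.61-fold in mean FPKM, while the mean of the partner receptor Tgfbr1 was 1.215-fold higher. Whether the transcripts of these genes were in the same cells was not tested. Changes were fitted on the log2(FPKM + 0.5) scale, which understates those of low genes, and a gene counted as called when its p, adjusted over all tested genes by Benjamini-Hochberg, was 0.05 or less and its log2 fold change was 1 or more in size. Tgfb2, Tgfbr2 and Smad3 were called, 3 of 9 tested, where 23.2% of all 13731 tested genes were called, so the count alone does not set the pathway apart. The share over all genes was 14.5% without a filter on low values and 28.3% with voom on recovered reads. It also moved when single libraries were left out, so it is not a fixed yardstick. The bulk values do not separate a change in the number of cells of a type from a change in RNA per cell, which cannot be told apart here.

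Tgfb2 went from 5.68 ± 1.21 FPKM (SD, n = 2) in 3mo control to 16.7 ± 0.558 in 18mo control. Its log2 fold change was 1.49 (SE 0.20, limma adjusted p = 0.00484). Smad3 went from 1.62 ± 0.397 to 5.85 ± 0.700 FPKM, or by 1.59 on the log2 scale (SE 0.20, limma adjusted p = 0.00484). Tgfbr2 went from 0.278 ± 0.0778 to 1.69 ± 0.00495 FPKM, or by 1.50 (SE 0.28, limma adjusted p = 0.00724). Without 3mo control replicate 2 the log2 fold changes of the 3 were 1.29, 1.40 and 1.40, and with the trend on transcript length removed they were 1.07, 1.17 and 1.11, and the 3 were called in each case. Without 18mo control replicate 2, Tgfbr2 kept a log2 fold change of 1.50 and its adjusted p became 0.0502.

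Smad7, the inhibitor, and Tgfb1 passed the adjusted p but not the size. Smad7 was higher by 0.82 on the log2 scale (limma adjusted p = 0.0205), and Tgfb1 by 0.94 (limma adjusted p = 0.0469). Both were called with a pseudocount of 0.1 and with voom on recovered reads, so for these low genes the call depends on the scale. Tgfb3 (-0.29), Tgfbr1 (0.27), Tgfbi (0.21) and Ltbp1 (0.23) did not pass, with limma adjusted p from 0.325 to 0.669. In the same samples 7 of the 9 genes had both 18mo libraries above both 3mo libraries, against 45.7% of all tested genes, and 0 had both below, against 32.8%. The median log2 fold change was 0.82 over the 9 genes and 0.16 over all tested genes. With the length trend removed, 5 of the 9 had both 18mo libraries above (40.9% of all tested genes) and 3 had both below (37.4%), since Tgfbr1 (-0.19) and Ltbp1 (-0.24) turned and Tgfb3 (-0.54) no longer overlapped, and the medians were 0.46 and 0.04.

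In the IOP-treated eyes the same 3 genes were called between the ages. Tgfb2 was 7.69 ± 1.34 FPKM in 3mo IOP and 23.6 ± 2.26 in 18mo IOP (log2 fold change 1.57, limma adjusted p = 0.00316), and Smad3 was 1.68 ± 0.00919 and 7.98 ± 0.873 (1.96, limma adjusted p = 0.00206). Tgfbr2 was 0.858 ± 0.276 and 2.49 ± 0.977 FPKM (1.11, limma adjusted p = 0.0172). The Tgfbr2 call was lost with a pseudocount of 1 (0.89), with the length trend removed (0.74) and without 3mo IOP replicate 1 (1.32), 3mo IOP replicate 2 (0.90) or 18mo IOP replicate 1 (0.77). Of all tested genes 21.8% were called here, 43.2% had both 18mo libraries above and 34.5% both below, beside 7 and 0 of the 9 genes. The called share was 13.55% without a filter on low values and 26.4% with voom, and it fell without either 3mo IOP library. With the length trend removed the shares above and below were 38.2% and 36.0%, beside 5 and 2 of the 9, and Ltbp1 turned (-0.31).

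Markers of other cells moved with age in these libraries. All 6 endothelial markers were called higher in 18mo control, their sum going from between 8.78 and 12.1 FPKM to between 63.8 and 64.0. Of the 4 pericyte and smooth muscle markers tested, 3 were called higher (6.53 to 7.33 against 32.3 to 37.1 FPKM in sum), as were 4 of 6 Müller glia markers (494 to 600 against 1083 to 1373) and 2 of 6 microglia markers (18.7 to 25.3 against 39.0 to 40.4). All 5 tested markers of the retinal pigment epithelium were called lower (154 to 187 against 2.77 to 7.45 FPKM), as were 5 of 6 retinal ganglion cell markers (309 to 623 against 32.8 to 74.7). Their part in the rise of Tgfb2, Tgfbr2 and Smad3 was not tested.

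**Figure D3:**
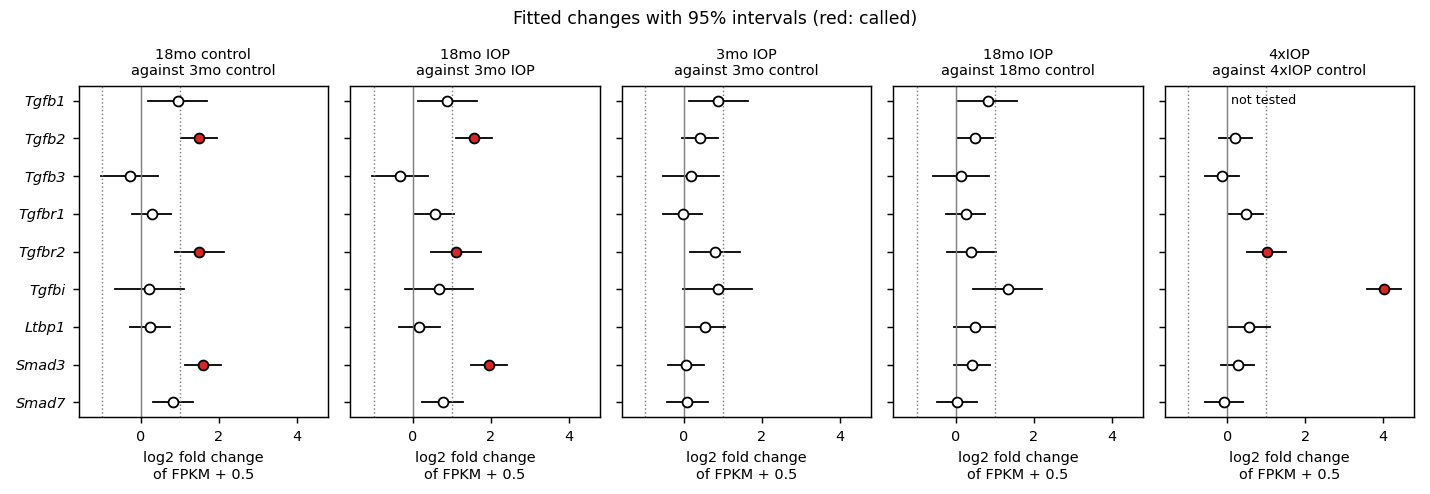
Fitted log2 fold changes of FPKM + 0.5 (x axis) with 95% intervals for the 9 genes (y axis) in 5 comparisons, with dotted lines at a log2 fold change of 1 in either direction and called genes in red. Tgfb2, Tgfbr2 and Smad3 are red in both age comparisons, no gene is red after a single elevation at either age, and Tgfbi at 4.03 is the farthest from 0 after repeated elevations.

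A single elevation of IOP left 0 of the 9 genes called at either age by limma, with 3 of 9 at an unadjusted p under 0.05 at each age and 0 called with voom on recovered reads. Few genes passed at all: 0.575% of the 13731 tested at 3 months and 0.124% at 18 months. At 3 months both IOP libraries lay above both controls for Tgfb1, Tgfb2, Tgfbr2, Tgfbi and Ltbp1, 5 of 9 against 28.6% of all tested genes, and for 0 of 9 both lay below, against 3.95%. At 18 months this held for 7 of 9, all but Tgfb3 and Smad7, against 36.5%, with 0 of 9 below against 9.89%. The median log2 fold change over the 9 was 0.41 at 3 months and 0.42 at 18 months, beside 0.13 and 0.09 over all tested genes. With the length trend removed, 5 of 9 lay above and 2 below at 3 months (15.6% and 21.7% of all tested genes) and 5 and 0 at 18 months (18.0% and 21.6%), where Tgfbr1 and Tgfbr2 then overlapped. Marker sums moved between the 18-month groups as well. Leukocyte markers went from 4.05 and 5.05 FPKM in 18mo control to 12.4 and 7.25 in 18mo IOP and lens markers from 1.77 and 2.52 to 3.42 and 12.7, with 2 of 2 and 3 of 3 tested higher in both libraries. Of 6 Müller glia markers 4 were higher in both, with sums of 1373 and 1083 against 1580 and 1302 that overlapped, and 5 of 5 blood markers were lower in both (166 and 426 against 54.3 and 44.3 FPKM). None of these was called in limma, with 2, 0, 4 and 1 of them at an unadjusted p under 0.05. Endothelial markers summed to 63.8 and 64.0 FPKM in 18mo control and 91.0 and 88.9 in 18mo IOP, with 2 of 6 higher in both. Rod markers summed to 17150 and 15320 FPKM against 11620 and 13880, with 4 of 6 lower and 1 higher in both. On these 2 lists limma called 0 genes, with 1 and 0 at an unadjusted p under 0.05. The part of all these markers in the 18-month values was not tested.

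Tgfbi had the largest estimate of the 9 at 18 months. It went from 0.488 ± 0.185 to 2.16 ± 1.41 FPKM (4.42-fold, or 1.33 on the log2 scale, limma adjusted p = 0.227), and the treated libraries differed from each other by more than the controls did. Without 18mo IOP replicate 1 the log2 fold change was 1.90 and the gene was called (limma adjusted p = 0.0455), and without 18mo IOP replicate 2 it was 0.76. In 18mo IOP replicates 1 and 2, where Tgfbi was 1.16 and 3.15 FPKM, the summed astrocyte markers were 33.4 and 89.1 FPKM and the lens markers 3.42 and 12.7, in the same order, and the microglia markers were 90.3 and 34.1 and the leukocyte markers 12.4 and 7.25, in the reverse order. Their part in the values of Tgfbi was not tested. At 3 months Tgfbi went from 0.359 ± 0.218 to 1.04 ± 0.161 FPKM (0.86 on the log2 scale, limma adjusted p = 0.604).

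Among the other genes, Tgfb1 had log2 fold changes of 0.87 at 3 and 0.82 at 18 months, Tgfbr2 of 0.79 and 0.41, Ltbp1 of 0.54 and 0.49, and Tgfb2 of 0.41 and 0.49. Their limma adjusted p lay between 0.401 and 0.884. The astrocyte and reactive glia marker Gfap was called higher at both ages (3.45 and 3.37), and kept its call under 7 of 9 alternative settings at 3 months and 3 of 9 at 18 months, and in 1 and 2 of the 4 refits that left out a library (at 3 months only without 3mo control replicate 2, at 18 months without either treated library). In 3mo IOP replicate 1 the summed fibroblast markers were 55.4 FPKM, against 4.19 to 5.50 in the controls and 16.7 in replicate 2. Leukocyte markers went from 2.403 and 3.735 FPKM in 3mo control to 14.25 and 16.17 in 3mo IOP. Of 2 tested, 1 was called higher, Cd52, which kept its call under 5 of 9 alternative settings. Microglia markers went from 18.68 and 25.29 to 37.65 and 32.18 FPKM, with 0 of 6 called and 5 higher in both libraries. Pericyte and smooth muscle markers went from 7.332 and 6.525 to 13.23 and 12.45 FPKM, with 0 of 4 called. The part of these markers in the 3-month values was not tested. The interaction of IOP with age, which asks whether the responses differ between the ages, was not passed by any of the 9 genes in limma (adjusted p = 0.9999 for each, 0 of 9 at an unadjusted p under 0.05, 0 with voom). Its 95% intervals were wide, from -0.77 to 1.71 for Tgfbi and from -1.29 to 0.51 for Tgfbr2. Over all genes 0% passed, with 218 of 13731 at an unadjusted p under 0.05.

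Repeated elevations were followed by a rise of Tgfbi from 0.0945 ± 0.0276 to 9.21 ± 0.352 FPKM, 97.4-fold in the mean. Tgfbr2 also rose, 2.82-fold, while Tgfb2 (0.21), Tgfb3 (-0.14), Tgfbr1 (0.47), Ltbp1 (0.57), Smad3 (0.26) and Smad7 (-0.08) did not pass on the log2 scale. The log2 fold change of Tgfbi was 4.03 (SE 0.20, limma adjusted p = 8.2e-08), with a range of 3.22 to 6.57 over the alternatives. Of all 13718 genes tested in these 4 libraries, 6.15% were called, beside 2 of the 8 genes tested here, and the median log2 fold change was 0.37 over the 8 and 0.10 over all.

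Tgfbr2 went from 0.652 ± 0.0375 to 1.84 ± 0.370 FPKM, a log2 fold change of 1.01 (SE 0.23, limma adjusted p = 0.0127) that lies at the size threshold. Its call was lost with a pseudocount of 1 (0.77), median-of-ratios scaling (0.92) or the length trend removed (0.90), without a filter on low values (adjusted p = 0.0642), and without 4xIOP control replicate 1 (0.98), 4xIOP control replicate 2 (1.05, adjusted p = 0.0509) or 4xIOP replicate 1 (0.85). Tgfb1 had a mean under 0.5 FPKM in these 4 libraries and was not tested. Its mean was 9.84-fold higher in 4xIOP, and the reads summed over a group, 87 against 7, gave a ratio per tag of 10.4 with an exact 95% interval of 4.82 to 26.5 that covers counting error only. Fitted without the filter, its log2 fold change was 0.70 (limma adjusted p = 0.0908), a value that the pseudocount of 0.5 holds down, since the controls were at 0.046 and 0.033 FPKM. Both 4xIOP libraries lay above both controls for 7 of the 9 genes, all but Tgfb3 and Smad7, against 27.7% of tested genes, and for 0 of 9 both lay below, against 12.7%. Of the 8 tested, 6 lay above and 1 below with the length trend removed, against 18.0% and 31.2%.

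Immune cell markers moved with Tgfbi in these retinas. Of 6 microglia markers 5 were called higher, their sum going from between 9.86 and 10.1 FPKM to between 45.6 and 50.0, and all 4 tested leukocyte markers were called higher (0.532 to 0.713 against 33.8 to 34.8), among them Cd52 (4.58), Ccr2 (2.99) and Ptprc (2.92). The T cell marker Cd3e was at 0 in 3 of the 4 libraries. All 4 tested lens markers were also called higher (0.420 to 2.81 against 30.5 to 74.7 FPKM), 3 of 3 tested markers of the retinal pigment epithelium lower (25.4 to 35.3 against 2.62 to 5.89), and Gfap higher (3.76). Fibroblast markers, which include makers of matrix, summed to 1.79 to 2.34 FPKM in control and 3.14 to 4.10 in 4xIOP, with 0 of 3 tested called in limma and 0 of 3 at an unadjusted p under 0.05. Endothelial markers summed to 25.0 and 32.3 FPKM in control and 53.5 and 56.8 in 4xIOP, with 1 of 5 tested called higher and 3 at an unadjusted p under 0.05 in limma. Rod markers summed to 9297 and 9707 FPKM in control and 4575 and 6877 in 4xIOP, with 0 of 6 called and 2 at an unadjusted p under 0.05. Müller glia markers summed to 813 and 865 FPKM in control and 526 and 620 in 4xIOP, although 4 of 6 were higher and 2 lower in both libraries, with 0 called and 1 at an unadjusted p under 0.05. The part of these markers in the rise of Tgfbi and Tgfbr2 was not tested.

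**Figure D4:**
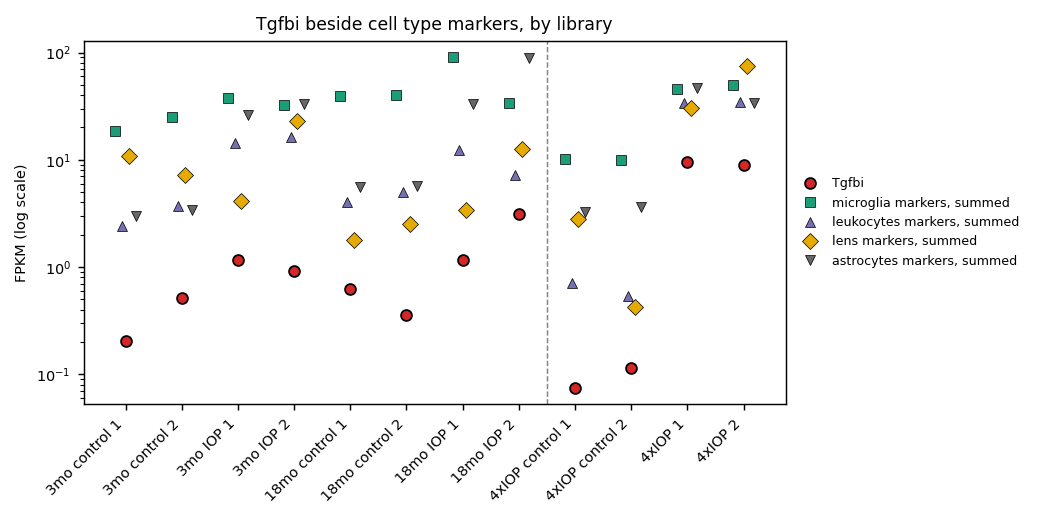
Tgfbi and the summed FPKM of 4 marker lists (y axis, log scale) in each of the 12 libraries (x axis, points of the lists set slightly apart), with a dashed line between the separately normalized tables. In 4xIOP Tgfbi and the microglia, leukocyte, lens and astrocyte markers are all above their fellow-eye controls. In 18mo IOP Tgfbi (3.15 FPKM) and the lens (12.7 FPKM) and astrocyte (89.1 FPKM) markers are higher in replicate 2, and the microglia (90.3 FPKM) and leukocyte (12.4 FPKM) markers in replicate 1.

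Side by side, the estimate of Tgfbi was 0.86 after a single elevation at 3 months, 1.33 at 18 months and 4.03 after 4 elevations, and that of Tgfbr2 was 0.79, 0.41 and 1.01. The control levels of Tgfbi also differed between the tables, at 0.359 FPKM in 3mo control and 0.0945 in 4xIOP control. No test was made across the tables.

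The rest of the pathway was read from 4 lists of other genes. With age in control eyes, where 23.2% of all tested genes were called, 5 of 7 receptors and co-receptors were called higher, led by Eng (log2 fold change 2.39) and Acvrl1 (1.63), both known from endothelium, and by the activin receptor Acvr2b (1.25). Of 11 tested genes of latent binding and activation 4 were called higher, with the latent binding proteins Ltbp4 (1.94) and Ltbp3 (1.45) and the integrin Itgb5 (1.24) in front, whereas Ltbp1 itself was not called. Among 17 Smads and regulators, the feedback inhibitor Pmepa1 (1.62) and the repressor Ski (1.10) were called higher and the pseudoreceptor Bambi lower (-1.16), 3 of 17 and so below the share over all genes. Of 16 tested target genes 5 were called higher, foremost the transcription factor Junb (3.79), the cell cycle inhibitor Cdkn1a (2.21) and fibronectin, Fn1 (2.12). With the length trend removed Acvr2b and Ski were not called, and with a pseudocount of 1 Bambi and Ski were not, nor was Ski with median-of-ratios scaling. Acvr2b, Bambi and Ski also lost their calls without 3mo control replicate 2 or 18mo control replicate 2, Itgb5 without the latter, and Acvr2b and Ski without 18mo control replicate 1.

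In treated eyes, where 21.8% of all tested genes were called, the age comparison called 5 of 11 genes of latent binding and activation, 3 of 7 receptors and 1 of 17 Smads and regulators, all higher. The receptors were Eng, Acvrl1 and Acvr2b. Acvr2b lost its call without a filter on low values and with the length trend removed. It also lost it without 3mo IOP replicate 1, 3mo IOP replicate 2 or 18mo IOP replicate 2, and Acvrl1 did without 3mo IOP replicate 2. Of the 16 targets 7 were called higher and 4 lower. Cdkn1a (2.97) and Junb (2.97) were higher, and the contractile gene Tagln was lower (-2.80), from 27.1 ± 17.4 FPKM in 3mo IOP to 3.04 ± 0.175 in 18mo IOP. Fibroblast markers moved with it, from 55.4 and 16.7 FPKM in sum in 3mo IOP to 7.10 and 6.37 in 18mo IOP, with 2 of 5 tested called lower, Lum (-2.79) and Dcn (-2.55). Of the 4 tested pericyte and smooth muscle markers Myh11 was called lower (-1.59) and the other 3 higher. Their part in the fall of Tagln was not tested.

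After a single elevation the called genes of the lists were targets. At 3 months, beside 0.575% of all tested genes, 4 of 16 targets were called higher. All 16 estimates were above 0, and 11 of the 16 were at an unadjusted p under 0.05 in limma, beside 1169 of all 13731 genes. The called targets of largest size were Timp1, an inhibitor of matrix proteases (4.58), the smooth muscle actin Acta2 (3.54) and Tagln (3.21). On the other lists limma called 0 of 11 genes of latent binding and activation (1 at an unadjusted p under 0.05), 0 of 7 receptors (2) and 0 of 17 Smads and regulators (3). The calls of Timp1, Acta2 and Tagln were lost with voom and without a filter on low values, and without 3mo control replicate 1 or 3mo IOP replicate 1, and that of Timp1 without 3mo IOP replicate 2. Acta2 went from 1.96 ± 0.409 to 31.4 ± 20.7 FPKM and Tagln from 2.18 ± 0.166 to 27.1 ± 17.4, with a wide spread between the IOP libraries. Of 5 tested fibroblast markers Lum (2.45) was called higher and 4 were at an unadjusted p under 0.05 in limma, and the smooth muscle marker Myh11 was at 2.14 (adjusted p = 0.111). Their part in the rise of the targets was not tested. At 18 months, beside 0.124% of all tested genes, Timp1 (4.09) was the 1 gene called on the 4 lists. Limma called 0 of 11 genes of latent binding and activation, but 7 were at an unadjusted p under 0.05, among them the integrins Itgb8 (1.195, adjusted p = 0.0824) and Itgav (1.07, adjusted p = 0.0903), chosen after their values were seen. On the other lists 0 of 7 receptors, 3 of 17 Smads and regulators and 8 of 16 targets were at an unadjusted p under 0.05 in limma. Timp1 kept its call under 3 of 9 alternative settings and in 2 of 4 refits without a library, with log2 fold changes from 3.18 to 5.001, and like that of Gfap the call was lost with a pseudocount of 0.1, without a filter, with median-of-ratios scaling, voom, the replicate block or the 2 groups alone, and without either 18mo control library.

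After repeated elevations, where 6.15% of all tested genes were called, 5 of 13 tested targets were called higher, led by Timp1 (6.01), Junb (1.67) and Fn1 (1.58). Of 10 tested genes of latent binding and activation 3 were called higher. They were the activator thrombospondin, Thbs1 (1.50), the microglial latent-TGF-beta anchor Nrros (1.13) and the integrin Itgb8 (1.01). All 10 estimates were above 0. At an unadjusted p under 0.05 in limma were 6 of these 10 genes and 9 of the 13 targets, beside 2119 of all 13718 genes. The Itgb8 call was kept under 4 of 8 alternative settings, and those of Nrros and Fn1 under 6 of 8 each. Itgb8 lost it without 4xIOP control replicate 1 or 4xIOP replicate 2, and Nrros and Fn1 without 4xIOP replicate 1. Of 6 receptors and 16 Smads and regulators tested, 0 were called in limma, with 1 and 3 at an unadjusted p under 0.05.

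**Figure D5:**
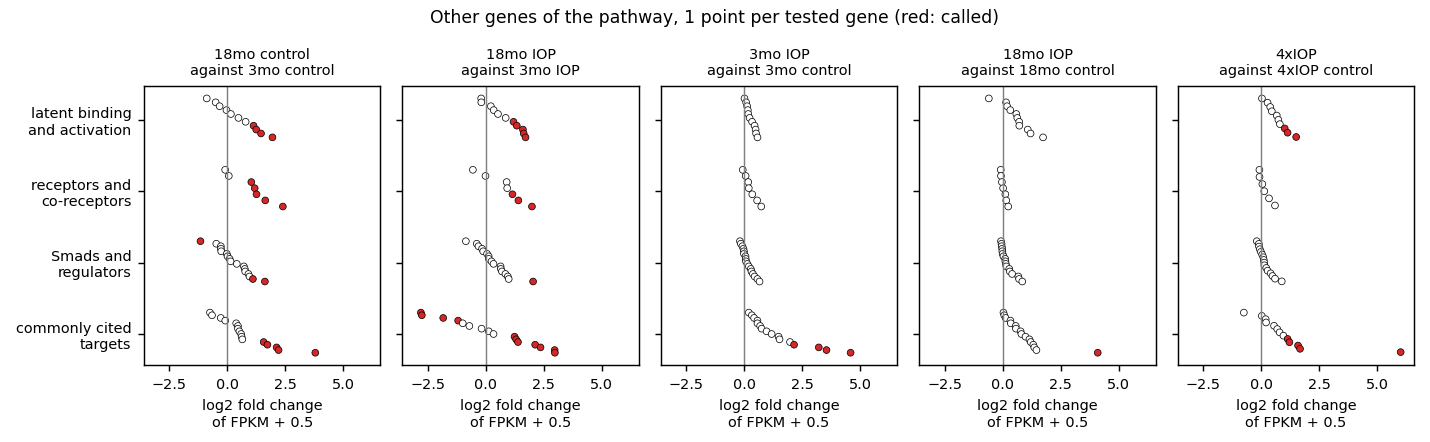
Log2 fold changes of FPKM + 0.5 (x axis) of the tested genes of 4 pathway lists (y axis, 1 point per gene, sorted within a list) in 5 comparisons, with called genes in red. Red points occur in all 4 lists with age in control eyes, among targets alone at 3 months after a single elevation, and in the upper and lower rows after repeated elevations, where Timp1 at 6.01 is farthest to the right.

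Across the 12 libraries the 9 genes did not vary as a block. Of their 36 pairs 29 had a Pearson r of log2(FPKM + 0.5) above 0, from -0.69 for Tgfb3 and Smad7 to 0.93 for Tgfb2 and Smad7, with a median of 0.53. The points share their libraries, the groups and the separate normalization, so these are descriptions. They are given without the share or median over all gene pairs. Among 13051 genes tested in both tables, those most like Tgfb2 were the collagen-binding receptor Antxr1 (r = 0.991), the focal adhesion gene Tns2 (0.988) and the kinase Dmpk (0.986), and those most like Tgfb1 were the iron oxidase Heph (0.961), Fah (0.955) and Ehd2 (0.950). Tgfb3 was most like Arhgap44 (0.971), Fam131b (0.963) and the neuronal kinesin Kif5a (0.960). Tgfbi was most like the antigen presentation gene H2-Eb1 (0.972), the acute phase gene Saa3 (0.963) and the activin subunit Inhbb (0.961).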

How the data were processed

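The authors isolated RNA with TRIzol, prepared poly(A), strand-specific libraries, aligned reads to mm10 with STAR (version 2.7.8a in the submitters' processing notes, which also list DESeq 1.24.0) and counted exon tags with HOMER, keeping 1 isoform per gene. The deposited values are FPKM, in 1 table per series, and replicates were not pooled. All 12 columns of values were mapped from the sample labels.

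FPKM times transcript length gave whole reads for 100% of the values checked, to within 0.1 of a read, which recovered the depth of each library. Those genes whose mean in a table reached 0.5 FPKM were fitted as log2(FPKM + 0.5) with limma 3.58.1 (R 4.3.3, trended empirical Bayes), the 8 single-elevation libraries in 4 groups (4 residual and 4.12 prior degrees of freedom) and the 4 repeated-elevation libraries on their own (2 and 10.6). Called means a p of 0.05 or less after Benjamini-Hochberg adjustment over all tested genes with a log2 change of 1 or more in size, and for the interaction the adjusted p alone. The fits were tested on simulated data. The 9 genes, the lists and the genes named from them were chosen with earlier results of these data known: all 9 genes, up to 3 called genes of largest size per list and comparison, markers at 0, and the 3 genes of highest r. Read counts cover counting error only. The alternatives were other pseudocounts (0.1 and 1), no filter, median-of-ratios scaling, no trend, a replicate block, removal of the length trend, voom on recovered reads, only the groups compared, and each library left out.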

Additional observations from a re-analysis of the deposited data

How the results depend on the processing

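Of 590 refits of single genes, 22 changed sign (9 by a setting and 13 by leaving out a library), none of them called before or after. In control eyes the age comparison called 3 genes, and 5 with a pseudocount of 0.1 or with voom, which added Tgfb1 and Smad7; without single libraries it called 2 to 4. After repeated elevations 2 genes were called, and 1 (Tgfbi) with a pseudocount of 1, without a filter, with median-of-ratios scaling or with the length trend removed; without single libraries it was 1 to 2. After a single elevation at 18 months the count was 0, and 0 to 1 without single libraries. Between ages in treated eyes it was 2 to 4. A replicate block for same-numbered libraries kept the counts of 3, 3, 0, 0, 0 and 2, and changed no call among the 9 genes, whereas over all genes it took the calls at 18 months from 17 to 0. For the 4 repeated-elevation libraries the replicate block, the crossed pairing and the refits without either control library estimated infinite prior degrees of freedom, so calls in these refits say little about stability. Same-numbered libraries deviated in opposite directions (r = -0.28, -0.53 and -0.29); a crossed pairing, chosen after seeing the data, called 1 gene at 18 months, 0 at 3 months and 2 after repeated elevations. Median-of-ratios scaling turned Smad3 (-0.11) and Smad7 (-0.062) at 3 months and Smad7 at 18 months (-0.075), and removal of the length trend gave -0.034, -0.028 and -0.063 for these and turned Tgfbr1 (-0.19) and Ltbp1 (-0.24) with age in control eyes and Ltbp1 (-0.31) in treated eyes. Leaving out single libraries gave ranges across 0 for Tgfbi (-0.049 to 0.47) with age in controls; Tgfb3 (-0.66 to 0.024) and Ltbp1 (-0.011 to 0.35) with age in treated eyes; Tgfb3 (-0.086 to 0.43), Tgfbr1 (-0.24 to 0.16), Smad3 (-0.14 to 0.24) and Smad7 (-0.11 to 0.29) after IOP at 3 months; Tgfb3 (-0.20 to 0.49) and Smad7 (-0.17 to 0.23) at 18 months; and Tgfb3 (-0.28 to 0.010) and Smad7 (-0.20 to 0.035) after repeated elevations.

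Median-of-ratios scaling moved the median of all genes with age in controls from 0.16 to 0.01 and after IOP at 3 months from 0.13 to -0.05, and the share of age calls that were higher from 50.1% to 35.0%. Over all genes the calls after IOP were 79 at 3 months (3 with voom, 9 unfiltered, 20 with the block, 21 with median-of-ratios scaling, 312 crossed) and 17 at 18 months (0 to 306 over the settings), and without single libraries 0 to 257 and 0 to 144. The cause was not tested. Tgfb1 was measured from 3 to 312 reads per library.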
